A study of Arabidopsis thaliana with 37 samples.

Results

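PHV (PHAVOLUTA, AT1G30490), YAB3 (YABBY3, AT4G00180), LCR (LEAF CURLING RESPONSIVENESS, AT1G27340) and SE (SERRATE, AT2G27100) are 4 regulators of leaf development in Arabidopsis thaliana. They were chosen by gene name, with earlier results of these data known. Every probe set that the platform annotation assigns to 1 of them and to no other gene was taken, 6 of the 8247 on the array. The 70 probe sets listed under several genes were not searched. PHV, LCR and SE are read by 1 probe set each and YAB3 by 3. Of these 6, 5 were among the 6049 probe sets bright enough to test, and the 2 tested ones of YAB3 are called its first and second probe set below. The third YAB3 probe set had scaled signals from 0.133 to 2.89 with a median of 0.597, below the floor of 11.96 on all 37 arrays. On the same arrays the first read 18.1 to 187 and the second 1.10 to 80.4, so the probe sets of this gene disagree in level. Whether the first and second read YAB3 alone or also related transcripts was not tested. The third is not described further.

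A leaf primordium forms an upper (adaxial) and a lower (abaxial) face, and the blade grows out where the domains meet. PHV is an HD-ZIP III transcription factor that specifies adaxial fate, and its transcript is cut under the guidance of the miR165/166 family. YAB3 is a YABBY transcription factor that acts with its close relative FIL on the abaxial side and in blade outgrowth. LCR is an F-box protein whose transcript is a target of miR394 (the same symbol is used elsewhere for a family of cysteine-rich peptides, which is not meant here). SE is a zinc finger protein that works beside DCL1 in cutting microRNA precursors, and leaves of se mutants are serrated. AGO1 is the protein that carries most plant microRNAs to their targets, and DCL1 is the enzyme that releases them.

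Total RNA of seedlings was measured on 37 one-colour arrays. At 9 days the groups were wild-type Ler (3 arrays), wild-type Col (3), ago1-10 (4) and ago1-11 (4). At 21 days they were a first Ler set, called Ler (1) (3), a second one, Ler (2) (4), Col (3), ago1-10 (3), ago1-11 (3) and dcl1-9 (4), an allele whose arrays carry its older name caf. A last group held ago1-10 at 35 days (3). The ago1-10 arrays carry the strain code MR44, except replicate 4 at 9 days and all 3 at 35 days, which carry MR49, so age and strain code cannot be told apart between 21 and 35 days. In titles with a strain code, the number after the code is 1 on all 9-day arrays and 2 on the 21-day ones, with 1 exception. That exception, ago1-10 replicate 3 at 21 days, carries 3, as replicates 2 and 3 at 35 days do, while replicate 1 at 35 days carries 2. Both arrays were kept in the groups their age labels give, and the YAB3 and PHV results against Ler (1) and between ages are also given without them. The comparisons of ago1-10 with Ler (2) and Col were not repeated without replicate 3. The ago1-11 arrays carry MR51, MR53, MR54 and MR57 at 9 days and MR57 at 21 days. The labels name the alleles but not the accession in which the ago1 alleles were held. Ler was used as the main wild type for them and Col as the second. Ler (2) was set against dcl1-9. In that set the title of replicate 1 carries Ler, and those of replicates 2, 3 and 4 carry WT. Whether replicates came from separate plantings is not given in the labels, so the p-values measure the spread between these arrays. No probe set is named for AGO1 or DCL1 alone in the annotation used, so the transcripts of the mutated genes are not analysed here.

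Median deposited signals ran from 11.3 to 30.2 across arrays, and those of the dcl1-9 arrays from 26.6 to 30.2. Each array was therefore scaled to a common median, and the levels below are scaled signals. A difference is given as log2, first group minus second, from a limma fit over all 37 arrays. Calls rest on p-values adjusted by Benjamini-Hochberg over all 6049 probe sets of a comparison, at a threshold of 0.05. Among 5 measured green shoot markers, 4 were called lower in ago1-10 at 9 days (where 9.44% of all probe sets were called lower) and 4 at 21 days (10.9%), with RCA, LHCB4.1 and PSAE-1 called at both. Their summed signal was 7454 to 9958 in ago1-10 against 16955 to 17923 in Ler (1) at 21 days, and 9335 to 12634 against 19494 to 25522 at 9 days. It was 12039 to 22478 in ago1-11 at 9 days and 16100 to 16914 at 21 days, and 9425 to 12634 in dcl1-9 against 12748 to 14675 in Ler (2). None of the 3 root and 8 flower markers listed has a probe set named for it alone. Neither of the 2 measured cytoskeleton genes of pollen and flowers, TUA1 and ACT11, was called in a mutant. RNA of whole seedlings does not separate fewer cells of a type from less RNA per cell, and the part of tissue make-up in the results below was not tested.

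**Figure D1:**
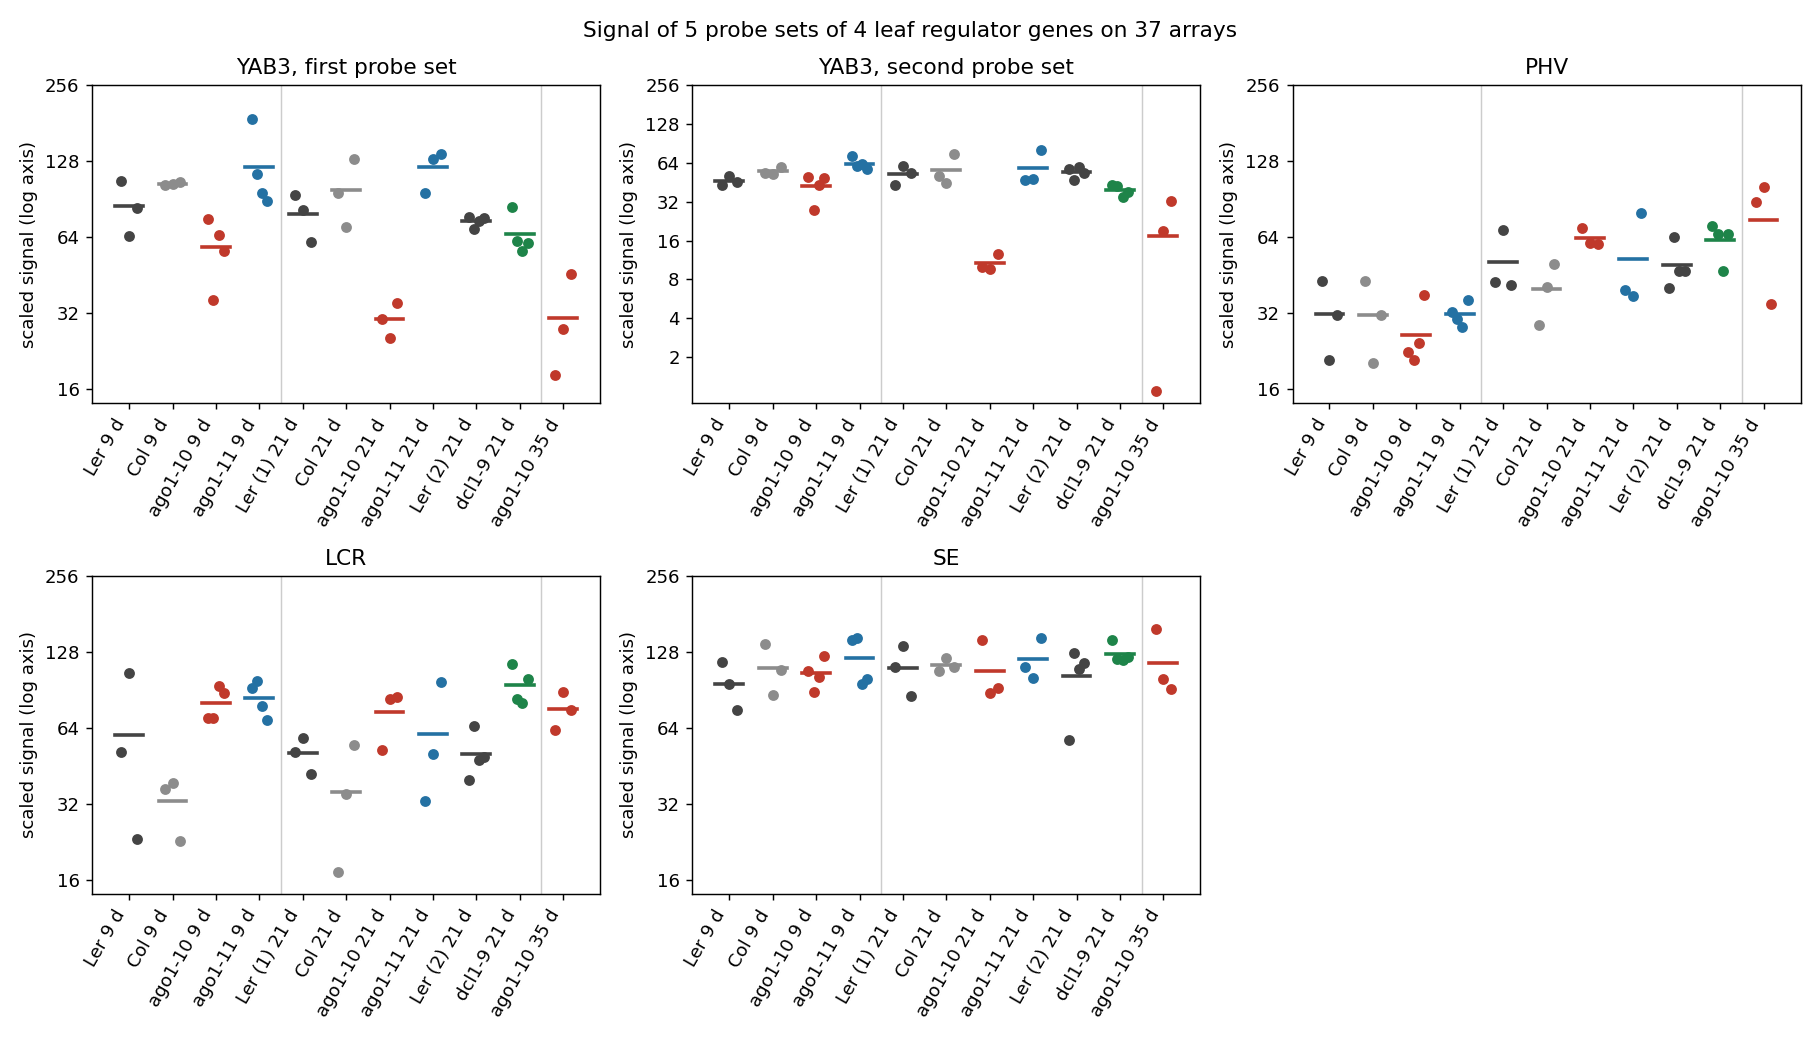
Scaled signal (log axis) of the 5 tested probe sets on all 37 arrays, by genotype and age; each point is 1 array and each bar the group mean, and the axis of the second YAB3 panel reaches lower than the others. Both YAB3 probe sets were lowest in ago1-10 at 21 and 35 days, and SE had the flattest profile of the 5.

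Of the 4 genes, YAB3 was the one called in a mutant against Ler. Both of its tested probe sets were lower in ago1-10 than in Ler (1) at 21 days. The first fell to 0.395 of the wild-type level and the second to 0.224. At that age the 2 ago1 alleles differed by 3.87-fold on the first probe set, and by 4.89-fold on the second, where the ago1-10 mean of 10.7 was below the floor of 11.96. No such change was called in ago1-11 or in dcl1-9.

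On the first probe set the ago1-10 arrays at 21 days read 30.3, 25.5 and 34.9, and the Ler (1) arrays 94.1, 81.9 and 60.9. Every mutant array was below every wild-type array. The log2 difference was -1.34 (SE 0.30, 95% interval -1.94 to -0.74) with a limma adjusted p of 0.00127. On the second probe set the ago1-10 arrays read 10.0, 9.64 and 12.6, and the Ler (1) arrays 43.0, 60.1 and 52.9. Again the groups did not overlap, and here 1 of the 3 mutant arrays lay above the floor of 11.96. The log2 difference was -2.16 (SE 0.47, interval -3.11 to -1.21) with a limma adjusted p of 0.00108. Because the mutant level is near background, its size depends on the constant added before the log, and with 16 added in place of 1.14 it was -1.34. With the replicate letter or number in each array title as a block in the fit, it was -1.95 and was not called (limma adjusted p 0.0523). Without ago1-10 replicate 3, the array with the other title number, the differences were -1.45 and -2.26 (limma adjusted p 0.00172 and 0.00191). In that comparison 2 of the 5 tested probe sets were called, both lower, where 20.6% of all probe sets were called, 10.9% lower and 9.7% higher.

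The Ler (2) and Col arrays gave the same direction at 21 days. The Ler (2) arrays read 76.5, 68.9, 73.7 and 76.2 on the first probe set, and the Col arrays 95.2, 70.3 and 130. Against Ler (2), ago1-10 differed by -1.27 and -2.22 on the 2 probe sets, with limma adjusted p of 0.00077 and 0.000255 (2 of 5 called, with 25.3% of all probe sets). Against Col the differences were -1.63 and -2.26, with limma adjusted p of 7.2e-05 and 0.00035. All 3 ago1-10 arrays were below all arrays of both groups. The comparison with Ler (1) was also made without scaling. Ler (1) replicate 3 was the dimmest array of the study by median signal, and its deposited signal of 36.0 on the first probe set lay within the ago1-10 range of 29.9 to 46.1. Without scaling the ago1-10 difference from Ler (1) was -0.82 with a limma adjusted p of 0.111. On the second probe set the deposited values of the 2 groups did not overlap (11.3 to 16.6 against 31.3 to 57), and without scaling the difference was -1.65 with a limma adjusted p of 0.014.

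At 9 days YAB3 gave no call in either allele against Ler. On the first probe set the ago1-10 arrays read 75.6, 36.1, 64.8 and 56.5, and the Ler arrays 107, 64.5 and 83.4. The groups overlapped, with a difference of -0.55 (interval -1.12 to 0.01) and a limma adjusted p of 0.185. The 9-day Col arrays read 103, 104 and 106, above every ago1-10 array, and that difference of -0.87 was called (limma adjusted p 0.0179). On the second probe set the ago1-10 arrays read 49.6, 27.4, 42.9 and 48.5 and the Ler arrays 42.8, 50.3 and 45.6, a difference of -0.17 (limma adjusted p 0.843). For ago1-10 against Ler at 9 days 0 of the 5 probe sets were called, and 0 had an unadjusted p under 0.05, where limma called 15.9% of all probe sets (6.41% higher and 9.44% lower).

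On the first probe set YAB3 in ago1-11 had means above Ler and Col at both ages, without a call. The ago1-11 arrays read 187, 114, 95.8 and 88.6 at 9 days and 95.7, 130 and 137 at 21 days. At 21 days all 3 were above all 3 Ler (1) arrays and all 4 Ler (2) arrays. The difference from Ler (1) was 0.61 (interval 0.01 to 1.21, unadjusted p 0.047, limma adjusted p 0.295), and from Ler (2) 0.68 (limma adjusted p 0.104). From Col it was 0.16 at 9 days and 0.32 at 21 days (limma adjusted p 0.813 and 0.547), with the groups overlapping at both ages. On the second probe set the ago1-11 arrays at 21 days read 46.9, 48.1 and 80.4, with a difference of 0.13 from Ler (1) and a limma adjusted p of 0.92, so the second probe set gave a smaller value. At 9 days its arrays, 72.6, 60.5, 62.0 and 57.3, were all above the 3 Ler arrays, with a difference of 0.44 (limma adjusted p 0.648).

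The 2 ago1 alleles were also set against each other, which needs no choice of wild type. Their accessions are not given and they share no strain code, so allele and strain cannot be told apart here. At 9 days all 4 ago1-11 arrays were above all 4 ago1-10 arrays on both probe sets. The difference was 1.03 on the first probe set (SE 0.26, interval 0.51 to 1.55, limma adjusted p 0.00724) and 0.60 on the second probe set (interval -0.22 to 1.42, limma adjusted p 0.341). Without ago1-11 replicate 1, the array at 187, the first was 0.80 with a limma adjusted p of 0.0532, and without scaling it was 0.65 (limma adjusted p 0.181). At 21 days the groups were again separate, by 1.95 on the first probe set (SE 0.30, interval 1.35 to 2.55, limma adjusted p 0.00011) and 2.29 on the second probe set (SE 0.47, interval 1.34 to 3.24, limma adjusted p 0.00341). The calls at 21 days held with each array left out in turn, and with 16 added before the log the second value was 1.45. YAB3 gave the only calls, 1 of 5 probe sets at 9 days, where 13.4% of all were called, and 2 of 5 at 21 days, where 7.51% were.

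Time separated the ago1-10 arrays as well. Between 9 and 21 days YAB3 fell by 0.88 on the first probe set (interval -1.44 to -0.32, limma adjusted p 0.0368) and by 1.84 on the second probe set (interval -2.72 to -0.95, limma adjusted p 0.00596), and no 21-day array reached a 9-day one. The first call was lost when any of 5 of its 7 arrays was left out, with limma adjusted p up to 0.149, and with no scaling (0.173), whereas the second held under all of these. The size of the second depends on the added constant, since the 21-day mean was below the floor, and with 16 added it was -1.10. Without replicate 3 at 21 days the differences were -0.99 and -1.94 (limma adjusted p 0.0433 and 0.0118). At 35 days the first probe set read 18.1, 27.7 and 45.6 and the second probe set read 1.10, 18.9 and 32.1, with differences of -0.07 and -0.05 from 21 days (limma adjusted p 0.981 and 0.99). The value of the second rests on the array at 1.10, which is replicate 1 with the other title number. Without it the difference was 1.13 and was called (limma adjusted p 0.0324), and that of the first probe set was 0.24 (0.787). With replicate 3 at 21 days left out instead, the differences from 21 to 35 days were 0.035 and 0.062 (limma adjusted p 0.987 and 0.984). In Ler the 21-day minus 9-day differences were -0.10 and 0.16, in Col -0.12 and 0.00, and in ago1-11 0.04 and -0.15, none called.

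Whether the ago1-10 difference from Ler grew with age was tested as a difference of differences. It was -0.79 on the first probe set (limma adjusted p 0.269) and -1.99 on the second probe set (limma adjusted p 0.0637), with 0 of 5 probe sets called and 1 at an unadjusted p under 0.05, where 4.86% of all were called. The p of the second probe set depends on the 35-day ago1-10 arrays, which enter the shared spread with readings from 1.10 to 32.1. With those 3 arrays left out of the fit its limma adjusted p was 0.000239. That setting was chosen after the data were seen. Of 9 other settings, this one included, 4 called the second probe set, with limma adjusted p from 0.000239 to 0.164 over the 9. The planned ones that called it were only the arrays compared (0.0125), 16 added before the log (0.0162) and scaling to a trimmed mean (0.0497). For ago1-11 the same test gave values from -0.60 to 0.13 (0 of 5 called and 0 at an unadjusted p under 0.05 by limma, with 1.7% of all called). The dcl1-9 difference from Ler (2) stood above the ago1-10 difference from Ler (1) by 1.16 on the first probe set and 1.72 on the second probe set, with limma adjusted p of 0.135 and 0.176 (0 of 5 called and 2 at an unadjusted p under 0.05, with 2.08% of all probe sets called). With the 35-day arrays left out, the second of these had a limma adjusted p of 0.00104. In a fit of only the arrays compared the 2 had 0.0313 and 0.0017. Of 9 other settings, 1 called the first and 2 called the second. Without ago1-10 replicate 3 at 21 days, the age test gave -0.89 and -2.10 on the 2 probe sets (limma adjusted p 0.209 and 0.053), and the dcl1-9 test 1.26 and 1.82 (0.0941 and 0.126).

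In dcl1-9 itself YAB3 was not called. On the first probe set the dcl1-9 arrays read 84.2, 61.4, 56.2 and 60.4, within reach of Ler (2), with a difference of -0.19 (limma adjusted p 0.924). On the second probe set they read 43.4, 42.4, 34.8 and 38, all below the Ler (2) arrays at 57.4, 46.8, 59.2 and 53.5, with a difference of -0.44 (interval -1.26 to 0.38, limma adjusted p 0.842).

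**Figure D2:**
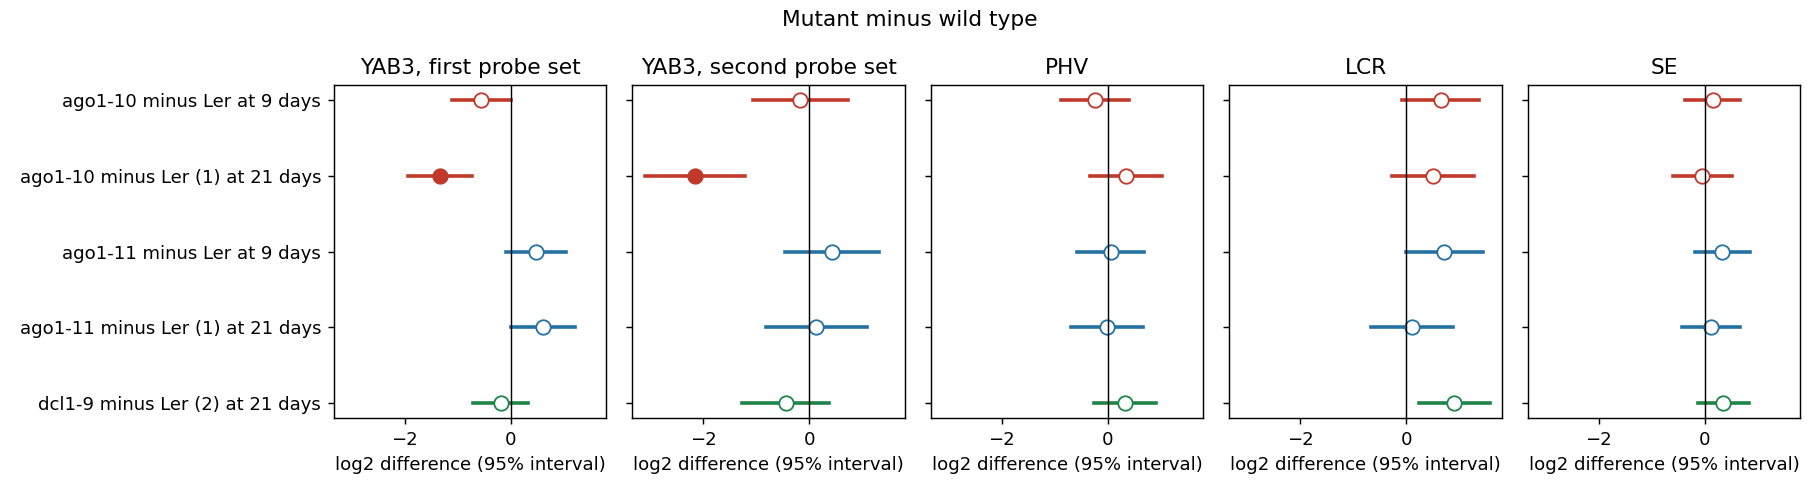
Log2 difference of each mutant from its Ler wild type (horizontal axis) with its 95% interval, for the 5 tested probe sets; a filled circle marks an adjusted p under 0.05. Both YAB3 probe sets were called in ago1-10 at 21 days, and all 5 LCR differences lay above 0 without a call.

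PHV, the adaxial factor, was not called in any mutant against Ler. Its differences ran from -0.24 to 0.35 over the 5 comparisons and their 95% intervals from -0.88 to 1.03. At 9 days the ago1-10 arrays read 22.4, 20.8, 24.2 and 37.5, the ago1-11 arrays 32.2, 30.3, 28.1 and 36.1, and the Ler arrays 42.7, 20.9 and 31.3. The 3 groups overlapped. At 21 days the ago1-10 arrays read 69.5, 60.4 and 59.95, against 42.5, 68.4 and 41.4 in Ler (1), and the dcl1-9 arrays 70.8, 65.6, 46.7 and 65.8, against 40.2, 63.7, 46.9 and 46.7 in Ler (2). Means were higher in both mutants, at 63.3 ± 5.40 (SD, n = 3) and 62.2 ± 10.6 (SD, n = 4), but the groups overlapped. The Ler (1) array at 68.4 lay above 2 of the 3 ago1-10 arrays, and the Ler (2) arrays at 63.7 and 46.9 lay above the lowest dcl1-9 array. The differences were 0.35 and 0.33 (limma adjusted p 0.493 and 0.823). Without ago1-10 replicate 3 the ago1-10 difference was 0.38 (limma adjusted p 0.501). All 3 ago1-10 arrays lay above the Col arrays at 28.7, 40.5 and 49.8, by 0.69 (unadjusted p 0.047, limma adjusted p 0.118).

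PHV did change with age in ago1-10. It rose by 1.27 from 9 to 21 days (SE 0.31, interval 0.63 to 1.90, limma adjusted p 0.00787), from a mean of 26.2 ± 7.65 (SD, n = 4) to 63.3, and every 21-day array was above every 9-day array. The call held with each array left out in turn, replicate 3 at 21 days included (1.31, limma adjusted p 0.0181), with limma adjusted p up to 0.035, and was lost without scaling, at 1.29 with a limma adjusted p of 0.0765. Together with YAB3, 3 of the 5 probe sets were called between these ages, where 9.95% of all were. At 35 days PHV read 88.3, 100.8 and 34.6, a spread that takes in all the 21-day values, with a difference of 0.10 (limma adjusted p 0.979). That difference was 0.06 without replicate 3 at 21 days (limma adjusted p 0.973) and -0.09 without replicate 1 at 35 days (0.952). None of the 5 was called between 21 and 35 days, 0 had an unadjusted p under 0.05, and limma called 0.0496% of all probe sets.

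In the other genotypes the difference was also above 0 and was not called. PHV at 21 minus 9 days was 0.68 in Ler (interval 0.00 to 1.36, limma adjusted p 0.233), 0.35 in Col (limma adjusted p 0.653) and 0.62 in ago1-11 (interval -0.02 to 1.25, limma adjusted p 0.375). In ago1-11 the 21-day arrays, at 39.5, 37.5 and 79.3, were all above the 9-day ones. The age change in ago1-10 exceeded that in Ler by 0.59 (interval -0.34 to 1.52, limma adjusted p 0.495), so it was not shown to differ from the change in Ler. Without ago1-10 replicate 3 at 21 days the excess was 0.62 (limma adjusted p 0.471). The age change in ago1-10 was not tested against that in Col. Of the 5 probe sets, limma called 0 with age in Ler (1 at an unadjusted p under 0.05, with 6.68% of all called), 0 in Col (0 unadjusted, 3.11% of all) and 0 in ago1-11 (0 unadjusted, 2.6% of all). No difference between the Ler and Col age changes was called either (0 by limma and 0 unadjusted, 0.198% of all called).

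**Figure D3:**
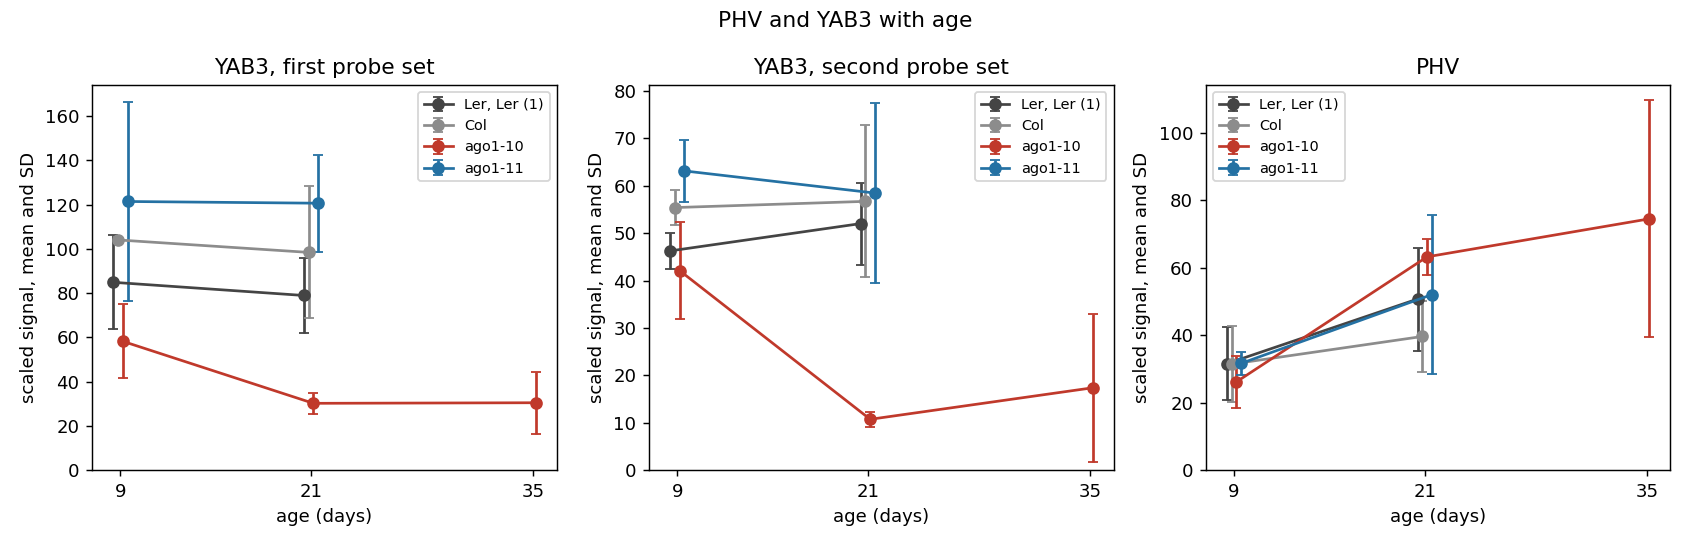
Scaled signal (mean and SD over arrays) against age in days for both YAB3 probe sets and PHV, by genotype; the 21-day Ler point is Ler (1). YAB3 fell and PHV rose between 9 and 21 days in ago1-10.

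LCR, the miR394 target, had differences from Ler above 0 in all 5 mutant comparisons, from 0.12 to 0.90, and none was called. The largest was in dcl1-9, whose arrays read 114, 83.4, 80.3 and 99.9. The Ler (2) arrays read 39.6, 64.7, 47.8 and 48.8 and the Ler (1) arrays 51.5, 58.3 and 42.1, so every dcl1-9 array was above all 7. The difference from Ler (2) was 0.90 (SE 0.33, interval 0.23 to 1.57, unadjusted p 0.0097, limma adjusted p 0.303), and from Ler (1) 0.88 (unadjusted p 0.018, limma adjusted p 0.156). In a fit of the dcl1-9 and Ler (2) arrays alone the limma adjusted p was 0.0209. The dcl1-9 arrays were also all brighter before scaling. Their deposited medians were 26.6 to 30.2, against 19.1 to 25.6 in Ler (2) and 11.3 to 21.3 in Ler (1). Within groups the scaled LCR signal had r = 0.42 with the deposited median. The part of array brightness in the LCR difference was not tested. For dcl1-9 against Ler (2), 0 of the 5 probe sets were called and 1 had an unadjusted p under 0.05, with 0.794% of all called (0.661% higher and 0.132% lower). Against Ler (1) 0 of 5 were called and LCR alone had an unadjusted p under 0.05, with 4.69% of all called.

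At 9 days the LCR level in Ler was uncertain, since its arrays read 51.3, 105 and 23.2. The ago1-10 arrays read 69.8, 70.0, 93.5 and 87.9 and the ago1-11 arrays 91.8, 98.1, 78.1 and 68.5. Both alleles were above 2 of the 3 Ler arrays and below replicate 2. The differences were 0.65 in ago1-10 (interval -0.07 to 1.37, limma adjusted p 0.234) and 0.72 in ago1-11 (interval -0.01 to 1.44, limma adjusted p 0.269). Without Ler replicate 2 they were 1.18 (limma adjusted p 0.0331) and 1.24 (0.0816), and without Ler replicate 3 they were 0.11 (0.899) and 0.18 (0.902). For ago1-11 against Ler at 9 days 0 of the 5 probe sets were called and 0 had an unadjusted p under 0.05, where limma called 4.3% of all (1.95% higher and 2.35% lower).

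Col gave a lower and tighter LCR baseline at that age, with arrays at 36.7, 38.6 and 22.8. All 8 arrays of the ago1 alleles at 9 days were above all 3. Against Col, LCR was higher by 1.29 in ago1-10 (interval 0.57 to 2.01, limma adjusted p 0.00673) and by 1.36 in ago1-11 (interval 0.63 to 2.08, limma adjusted p 0.00901). In these comparisons 2 of 5 probe sets were called for ago1-10, LCR and the first YAB3 probe set, with 24.7% of all, and 1 of 5 for ago1-11, with 11.5% of all.

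At 21 days the LCR arrays of ago1-10 read 52.4, 83.3 and 85.0 and those of ago1-11 32.8, 50.3 and 97.4. The ago1-11 values spanned the whole range of both Ler sets. Differences from Ler (1) were 0.51 (limma adjusted p 0.363) and 0.12 (limma adjusted p 0.913), and from Ler (2) 0.53 and 0.14 (limma adjusted p 0.307 and 0.848). The Col arrays read 17.2, 34.9 and 54.5, and against them ago1-10 was higher by 1.14 (limma adjusted p 0.0219, groups overlapping) and ago1-11 by 0.74 (limma adjusted p 0.214). Against Col, 3 of 5 probe sets were called for ago1-10 (30.1% of all) and 0 for ago1-11 (0 unadjusted, 12.3% of all). For ago1-11 against Ler (1), limma called 0 of 5 with 1 at an unadjusted p under 0.05 (2.4% of all, 1.19% higher and 1.21% lower), and against Ler (2) 0 with 1 unadjusted (11.9% of all).

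LCR was also compared between the wild types, which share the arrays used above. Ler exceeded Col by 0.64 at 9 days and by 0.63 at 21 days, neither called (limma adjusted p 0.327 and 0.398), and the Ler sets differed by -0.02. Between the wild types no probe set of the 4 genes was called, with 0 of 5 at an unadjusted p under 0.05 in each case, while limma called 10.5% of all for Ler against Col at 9 days, 6.81% for Ler (1) against Col at 21 days and 1.85% for Ler (2) against Ler (1). LCR did not change with age by a call in any genotype, with differences of 0.00 in Ler, 0.01 in Col, -0.15 in ago1-10 and -0.60 in ago1-11.

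**Figure D4:**
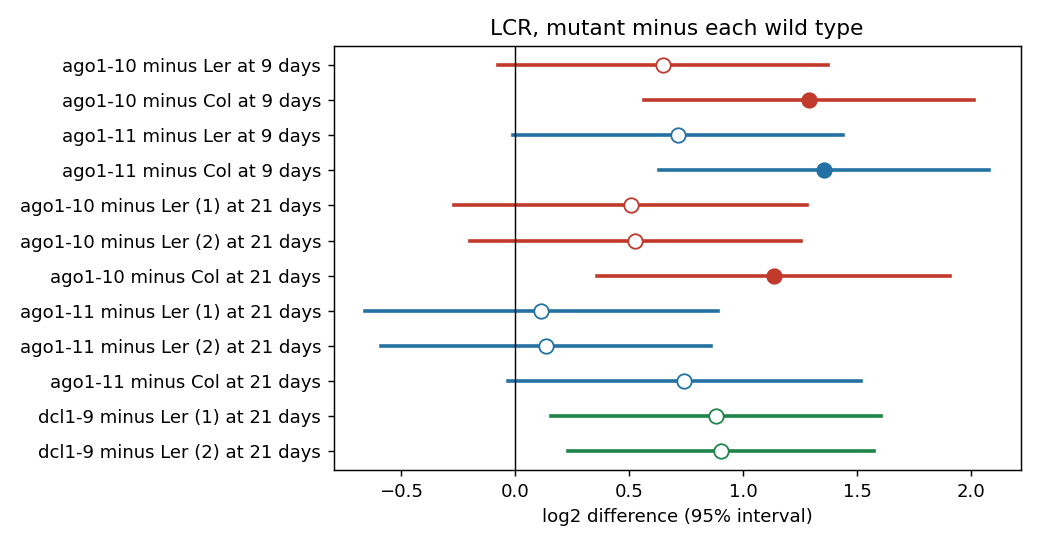
Log2 difference of LCR (horizontal axis, with its 95% interval) between each mutant and each wild type of its age; a filled circle marks an adjusted p under 0.05. The 3 filled circles are all against Col, and the dcl1-9 intervals lie above 0 against both Ler sets.

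SE, the partner of DCL1, varied least of the 4 genes between groups. Its group means ran from 95.5 ± 20.5 (SD, n = 3) in Ler at 9 days to 125 ± 11.5 (SD, n = 4) in dcl1-9, a log2 range of 0.41. The SD of its 11 group means was 0.12, smaller than its SD between arrays of a group (0.32), and 0.711% of the tested probe sets had a smaller one. Its lowest array was Ler (2) replicate 1 at 57, below the other 3 of that set at 127, 110 and 115. The highest was an ago1-10 array at 35 days, at 157. Differences from Ler in the 5 mutant comparisons ran from -0.04 to 0.35, with intervals from -0.60 to 0.85 and limma adjusted p from 0.54 to 0.922. The dcl1-9 arrays read 143, 120, 118 and 122, and their difference of 0.35 from Ler (2) had an interval of -0.13 to 0.83. Without Ler (2) replicate 1, the array at 57, that difference was 0.097 (limma adjusted p 0.994). That array, the one titled Ler, was also the lowest of its set for PHV (40.2) and LCR (39.6), though not for YAB3. With each array left out in turn, the dcl1-9 difference from Ler (2) ran from 0.24 to 0.46 for PHV. For LCR it ran from 0.80 to 1.03, and neither was called.

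The other probe sets varied more between groups than SE. The SD of group means was 0.48 for PHV, 0.69 for the first YAB3 probe set, 0.90 for the second YAB3 probe set and 0.52 for LCR, against 0.42, 0.36, 0.62 and 0.49 between arrays of a group. A smaller SD of group means was found in 66.6%, 85.3%, 92.6% and 72.0% of tested probe sets. Ordered by mean, PHV ran from ago1-10 at 35 days down through ago1-10 at 21 days and dcl1-9 to ago1-10 at 9 days, and LCR from dcl1-9 down to Col at both ages. For PHV, LCR and SE the arrays of all 10 pairs of neighbours in that order overlapped. For YAB3 9 of 10 did, the exception being the step down to ago1-10 at 21 days, from ago1-10 at 9 days on the first probe set (0.88) and from dcl1-9 on the second probe set (1.78).

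Few genes of the surrounding pathways have a named probe set in the annotation used, which leaves 4383 of the 8247 probe sets unnamed. A gene counts as named here where a probe set is listed for it alone. Of 23 leaf polarity genes listed, PHV and YAB3 were named and measured, and 1, YAB3, was called in a mutant (lower in ago1-10 at 21 days, as were 10.9% of all probe sets). None of the 18 listed genes of meristem and leaf growth has a named probe set. Of 22 genes of the small RNA machinery, SE and SQN, a cyclophilin that assists AGO1, were named and measured. Neither was called in the 5 mutant comparisons, with SQN between -0.42 and 0.55. SQN read near the floor of 11.96, with group means from 5.88 in Col at 21 days to 19.4 in dcl1-9. Its lowest ago1-11 array at 9 days read 4.46, so the size of its differences depends on the added constant. Of 41 listed microRNA targets 6 were named and measured, namely PHV, LCR, the copper protein gene ARPN, the copper chaperone gene CCS, and the ATP sulfurylase genes APS3 and APS4.

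Among those 6 targets limma called 1 higher in ago1-10 at 9 days, 2 in ago1-10 at 21 days, 0 in ago1-11 at 9 days, 1 in ago1-11 at 21 days and 2 in dcl1-9, and 0 lower in each. The shares of all probe sets called higher were 6.41%, 9.7%, 1.95%, 1.19% and 0.661% in that order. The median of the 6 was -0.09, 0.43, 0.24, 0.29 and 0.86, beside -0.01, 0.01, -0.05, -0.02 and -0.03 over all tested probe sets. The list was drawn up with earlier results of these data known, so these counts and medians are a description and not a test. The called targets were ARPN in ago1-10 (2.38 at 9 days and 2.51 at 21 days) and in dcl1-9 (2.12), APS4 in ago1-10 (2.11) and ago1-11 (1.19) at 21 days, and CCS in dcl1-9 (1.81). ARPN was at 4.89 to 8.01 in Ler (2), below the floor on all 4 arrays, so the size of its dcl1-9 difference depends on the added constant. Between the Ler sets, Ler (2) minus Ler (1), ARPN differed by -1.14 (unadjusted p 0.0048, limma adjusted p 0.124). CCS was called lower in Ler (2), the wild type of that comparison, than in Ler (1), by -1.32 (limma adjusted p 0.0284). PHV and LCR, the leaf regulators among them, were not called in any.

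The profiles of the 4 genes were compared over the 11 group means, as a description. The 2 YAB3 probe sets followed each other (r = 0.95 over group means, 0.86 over 37 arrays and 0.62 after the group means were taken out). PHV ran against YAB3 over group means (r = -0.57 and -0.61), but within groups r was 0.00 and -0.14. PHV and SE had r = 0.58 within groups, and the within-group r of each with its array's deposited median was 0.50 and 0.33, so bright arrays tended to read higher for both after scaling. LCR had a value of 0.42 by that measure and the YAB3 probe sets 0.06 and 0.03. All these values share the same 37 arrays.

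Among 2659 or 2660 other single-gene probe sets, the 3 nearest profiles to each gene were named by r over the 11 group means. For PHV they were ZAP1, a WRKY transcription factor (0.95), AT2G44200 (0.94) and AT1G03290 (0.91). For the first YAB3 probe set they were AT4G17810 (0.94), AT4G39970 (0.92) and AT4G26540 (0.90). AT4G39970 (0.96) also led for the second YAB3 probe set, followed by AT2G43030 and AT4G01310 (both 0.95). LCR was nearest to AT2G21390 (0.95), AT2G45030 (0.91) and AT1G22730 (0.90). SE, with little spread to match, reached 0.79 with AT1G10820, 0.78 with AT4G18820 and 0.73 with AT2G25430. Over the 37 arrays these r values were lower in every case, from 0.12 for SE with AT1G10820 to 0.86 for the second YAB3 probe set with AT2G43030.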

How the data were processed

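The deposited table holds signal intensity per probe set, which the authors made with MAS5 according to the submitters' processing notes; the version and the scaling target are not given there. Of its 305139 cells, 7913 hold exactly 3 decimals, and these were read as values with a point between digit groups and multiplied by 1000 (none lies in the rows described). Each array was scaled to the common median. The filter kept 6049 probe sets that exceeded 11.96 (percentile 40 of all values) on 3 or more arrays. A constant of 1.14 (percentile 10) was added before log2. Symbols come from the platform annotation, updated through the RefSeq gene table (3794 probe sets with 1 gene, 70 with several, 4383 unlisted and unnamed here).

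A limma fit (3.58.1, R 4.3.3, lmFit, contrasts.fit, eBayes with trend) held all 37 arrays with 1 mean per group and no covariate, and was tested on simulated data. The p-values were adjusted by Benjamini-Hochberg in each comparison separately, and those below 0.05 were called. All single-gene probe sets of the 4 genes are described. The 3 nearest single-gene profiles are named for each (for the second YAB3 probe set, outside the rule and after its values were seen). Other genes are named where they belong to a list and were called, or were the measured members of a list. The genes and lists were chosen with earlier results of these data known. Comparisons against the same Ler arrays share them. Figures used matplotlib 3.10.9 in Python 3.11.15. Alternatives were other scalings, no scaling, another constant, no filter, smaller fits, other wild types, strain codes, the title mark as a block, and each array left out. The main fit took no pairing from marks shared between groups. Correlations of deviations from the group means over such pairs ran from -0.30 to 0.18. Pairs without a shared mark were not set beside them, so this check cannot settle whether the arrays were paired. The number of arrays limits the precision, and no coordinates are given because the files name no genome build.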

Additional observations from a re-analysis of the deposited data

Results flagged for a closer look

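SE read 143 on dcl1-9 replicate 1, far above the other 3 arrays of that group, which lay between 118 and 122. Chance alone sets apart about 1 in 20 groups by this measure, and 20 groups of 4 arrays were looked at over the 5 probe sets. The SE level of that group was not called different from Ler (2).

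The 2 ago1 alleles differed for YAB3. On the first probe set the ago1-11 minus ago1-10 difference was 1.03 at 9 days and 1.95 at 21 days, and on the second it was 2.29 at 21 days, each with a limma adjusted p under 0.05. The green shoot marker sum at 9 days was 12039 to 22478 in ago1-11 and 9335 to 12634 in ago1-10, which overlap. At 21 days it was 16100 to 16914 in ago1-11 and 7454 to 9958 in ago1-10, and its part in the YAB3 difference was not tested.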

How the results depend on the processing

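The counts of called values and of signs cover the 5 tested probe sets in all 19 comparisons, and adjusted p are limma's. The YAB3 probe sets are marked first and second. Of 890 values under another setting, 797 kept their direction and side of the threshold, 7 lost a call, 14 gained one and 72 changed sign. Of 755 values with 1 array left out, the numbers were 657, 6, 1 and 91. No called value changed sign in either, and 1 of the 91 was also newly called, the second YAB3 probe set from 21 to 35 days in ago1-10 without 35-day replicate 1 (1.13, adjusted p 0.0324), so that 2 values gained a call with 1 array left out. The other was LCR in ago1-10 against Ler at 9 days without Ler replicate 2 (1.18, adjusted p 0.0331). No scaling and the fit without the 35-day arrays were chosen after the data were seen. Whether the title marks pair the arrays was not settled, so calls lost with the block are given with their values. The block could not be fitted for Ler (2) against Ler (1), which share no mark. The causes of these changes were not tested. PHV was no longer called without scaling for ago1-10 with age (1.29, adjusted p 0.0765). YAB3 (first) was no longer called without scaling for ago1-10 against Ler (1) at 21 days (-0.82, adjusted p 0.111), ago1-10 with age (-0.87, adjusted p 0.173) and ago1-11 against ago1-10 at 9 days (0.65, adjusted p 0.181). LCR was called without scaling for ago1-10 against Ler at 9 days (1.22, adjusted p 0.0492). Probe sets called without scaling numbered 99 for ago1-11 against Ler at 9 days, 71 for ago1-11 against Ler (1) at 21 days and 131 for dcl1-9 against Ler (2) at 21 days. YAB3 (first) was called with Col as wild type for ago1-10 against Ler at 9 days (-0.87, adjusted p 0.0179). LCR was called with Col as wild type for ago1-10 against Ler at 9 days (1.29, adjusted p 0.00673), ago1-10 against Ler (1) at 21 days (1.14, adjusted p 0.0219) and ago1-11 against Ler at 9 days (1.36, adjusted p 0.00901). YAB3 (second) was no longer called with the title mark as a replicate block for ago1-10 against Ler (1) at 21 days (-1.95, adjusted p 0.0523). Probe sets called with the title mark as a replicate block numbered 705 for ago1-10 against Ler (1) at 21 days, 87 for ago1-11 against Ler at 9 days, 36 for ago1-11 against Ler (1) at 21 days and 18 for dcl1-9 against Ler (2) at 21 days. YAB3 (first) was no longer called with the title mark as a replicate block for ago1-10 with age (-0.89, adjusted p 0.0614). Probe sets called with the values as written numbered 166 for ago1-11 against Ler at 9 days. Probe sets called in a fit of only the arrays compared numbered 690 for ago1-10 against Ler (1) at 21 days, 80 for ago1-11 against Ler at 9 days, 59 for ago1-11 against Ler (1) at 21 days and 266 for dcl1-9 against Ler (2) at 21 days. LCR was called in a fit of only the arrays compared for dcl1-9 against Ler (2) at 21 days (0.90, adjusted p 0.0209). YAB3 (first) was no longer called in a fit of only the arrays compared for ago1-10 with age (-0.88, adjusted p 0.0791). YAB3 (first) was called in a fit of only the arrays compared for the dcl1-9 against ago1-10 effect (1.16, adjusted p 0.0313). YAB3 (second) was called in a fit of only the arrays compared for the ago1-10 effect between ages (-1.99, adjusted p 0.0125) and the dcl1-9 against ago1-10 effect (1.72, adjusted p 0.0017). Probe sets called with the 35-day arrays left out numbered 77 for dcl1-9 against Ler (2) at 21 days. YAB3 (second) was called with the 35-day arrays left out for ago1-11 against ago1-10 at 9 days (0.60, adjusted p 0.0386), the ago1-10 effect between ages (-1.99, adjusted p 0.000239) and the dcl1-9 against ago1-10 effect (1.72, adjusted p 0.00104). YAB3 (second) was called with scaling to a trimmed mean for the ago1-10 effect between ages (-2.09, adjusted p 0.0497). YAB3 (second) was called with 16 added before the log for the ago1-10 effect between ages (-1.22, adjusted p 0.0162). PHV changed sign without scaling in ago1-10 against Ler at 9 days (0.32), Ler against Col at 9 days (-0.28), Ler (2) against Ler (1) at 21 days (0.39) and ago1-10 from 21 to 35 days (-0.26). PHV changed sign without scaling in ago1-11 against ago1-10 at 9 days (-0.076). YAB3 (first) changed sign without scaling in ago1-10 against Ler at 9 days (0.017), dcl1-9 against Ler (2) at 21 days (0.19), Ler (2) against Ler (1) at 21 days (0.34) and ago1-11 with age (-0.10). YAB3 (first) changed sign without scaling in the ago1-11 effect between ages (-0.072). YAB3 (second) changed sign without scaling in ago1-10 against Ler at 9 days (0.40) and Col with age (-0.11). LCR changed sign without scaling in Ler (2) against Ler (1) at 21 days (0.39), Ler with age (0.059), Col with age (-0.092) and ago1-10 from 21 to 35 days (-0.30). LCR changed sign without scaling in ago1-11 against ago1-10 at 9 days (-0.31) and the Ler against Col age change (0.15). SE changed sign without scaling in ago1-10 against Ler (1) at 21 days (0.48), Ler (2) against Ler (1) at 21 days (0.27), Col with age (-0.053) and ago1-10 from 21 to 35 days (-0.26). SE changed sign without scaling in ago1-11 against ago1-10 at 9 days (-0.20) and ago1-11 against ago1-10 at 21 days (-0.37). SE changed sign with Col as wild type in ago1-10 against Ler at 9 days (-0.057). PHV changed sign with Col as wild type in ago1-11 against Ler (1) at 21 days (0.33). YAB3 (second) changed sign with the title mark as a replicate block in ago1-10 from 21 to 35 days (0.076). PHV changed sign with the title mark as a replicate block in ago1-11 against Ler (1) at 21 days (0.15), Ler against Col at 9 days (-0.26) and the ago1-11 effect between ages (0.065). LCR changed sign with the title mark as a replicate block in ago1-11 against Ler (1) at 21 days (-0.23), Ler with age (0.10) and the Ler against Col age change (0.089). SE changed sign with the title mark as a replicate block in ago1-11 against Ler (1) at 21 days (-0.12), Ler (1) against Col at 21 days (0.18) and ago1-11 with age (0.19). YAB3 (first) changed sign with the title mark as a replicate block in Ler with age (0.068) and the ago1-11 effect between ages (-0.061). SE changed sign with the values as written in ago1-10 against Ler (1) at 21 days (0.001) and ago1-10 with age (-0.029). PHV changed sign with the values as written in Ler against Col at 9 days (-0.014) and Ler (2) against Ler (1) at 21 days (0.036). LCR changed sign with the values as written in Ler (2) against Ler (1) at 21 days (0.036) and ago1-10 from 21 to 35 days (-0.008). SE changed sign with the other Ler set in ago1-10 against Ler (1) at 21 days (0.10). PHV changed sign with the other Ler set in ago1-11 against Ler (1) at 21 days (0.010). PHV changed sign under quantile normalization in ago1-11 against Ler (1) at 21 days (0.046) and Ler against Col at 9 days (-0.009). SE changed sign under quantile normalization in Ler (1) against Col at 21 days (0.099), Col with age (-0.033), ago1-10 with age (-0.019) and ago1-11 with age (0.068). YAB3 (second) changed sign under quantile normalization in Ler (2) against Ler (1) at 21 days (-0.017) and Col with age (-0.036). LCR changed sign under quantile normalization in Ler with age (0.054), Col with age (-0.017) and the Ler against Col age change (0.071). PHV changed sign with scaling to a trimmed mean in Ler against Col at 9 days (-0.058) and the dcl1-9 against ago1-10 effect (0.040). YAB3 (second) changed sign with scaling to a trimmed mean in Ler (1) against Col at 21 days (0.075), Col with age (-0.055) and ago1-10 from 21 to 35 days (0.022). SE changed sign with scaling to a trimmed mean in Ler (1) against Col at 21 days (0.12) and ago1-11 with age (0.041). YAB3 (first) changed sign with scaling to a trimmed mean in Ler with age (0.093), ago1-10 from 21 to 35 days (0.021) and the ago1-11 effect between ages (-0.005). LCR changed sign with scaling to a trimmed mean in Ler with age (0.19), Col with age (-0.042) and the Ler against Col age change (0.23). SE changed sign with MR57 arrays only in ago1-11 with age (0.24). YAB3 (second) changed sign with 16 added before the log in ago1-10 from 21 to 35 days (0.20). With 1 array left out in turn, values ran as follows. YAB3 (second) ran -0.25 to 0.023 for ago1-10 against Ler at 9 days, -0.12 to 0.27 for ago1-11 against Ler (1) at 21 days and -0.25 to 0.12 for Ler (1) against Col at 21 days. YAB3 (second) ran -0.061 to 0.18 for Ler (2) against Ler (1) at 21 days, -0.21 to 0.15 for Col with age and -0.82 to 1.13 for ago1-10 from 21 to 35 days. LCR ran 0.11 to 1.18 for ago1-10 against Ler at 9 days, -0.29 to 0.47 for ago1-11 against Ler (1) at 21 days and -0.15 to 0.085 for Ler (2) against Ler (1) at 21 days. LCR ran -0.54 to 0.52 for Ler with age, -0.36 to 0.44 for Col with age and -0.26 to 0.079 for ago1-10 with age. LCR ran -0.17 to 0.18 for ago1-10 from 21 to 35 days, -0.012 to 0.16 for ago1-11 against ago1-10 at 9 days and -0.67 to 0.40 for the ago1-10 effect between ages. LCR ran -0.55 to 0.51 for the Ler against Col age change. SE ran -0.014 to 0.30 for ago1-10 against Ler at 9 days, -0.27 to 0.11 for ago1-10 against Ler (1) at 21 days and -0.052 to 0.28 for ago1-11 against Ler (1) at 21 days. SE ran -0.22 to 0.11 for Ler (1) against Col at 21 days, -0.32 to 0.11 for Ler (2) against Ler (1) at 21 days and -0.11 to 0.22 for Col with age. SE ran -0.21 to 0.14 for ago1-10 with age, -0.16 to 0.10 for ago1-11 with age and -0.14 to 0.32 for ago1-10 from 21 to 35 days. SE ran -0.023 to 0.32 for the Ler against Col age change. The number of probe sets called ran 537 to 884 for ago1-10 against Ler at 9 days, 756 to 1394 for ago1-10 against Ler (1) at 21 days and 82 to 481 for ago1-11 against Ler at 9 days. The number of probe sets called ran 56 to 258 for ago1-11 against Ler (1) at 21 days and 18 to 54 for dcl1-9 against Ler (2) at 21 days. PHV ran -0.20 to 0.29 for ago1-11 against Ler at 9 days, -0.35 to 0.22 for ago1-11 against Ler (1) at 21 days and -0.26 to 0.27 for Ler against Col at 9 days. PHV ran -0.15 to 0.21 for Ler (2) against Ler (1) at 21 days, -0.18 to 0.57 for ago1-10 from 21 to 35 days and -0.41 to 0.19 for the ago1-11 effect between ages. PHV ran -0.25 to 0.11 for the dcl1-9 against ago1-10 effect. YAB3 (first) ran -0.25 to 0.063 for Ler (2) against Ler (1) at 21 days, -0.28 to 0.082 for Ler with age and -0.34 to 0.095 for Col with age. YAB3 (first) ran -1.09 to -0.74 for ago1-10 with age, -0.090 to 0.27 for ago1-11 with age and -0.40 to 0.24 for ago1-10 from 21 to 35 days. YAB3 (first) ran 0.80 to 1.17 for ago1-11 against ago1-10 at 9 days, -0.044 to 0.36 for the ago1-11 effect between ages and -0.19 to 0.25 for the Ler against Col age change.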
